A study of Mus musculus with 6 samples.

Results

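The RNAs described here encode the protein subunits of the mitochondrial respiratory chain and of the ATP synthase. They were measured by bulk RNA-Seq of primary mouse hepatocytes at 0 h, from undamaged liver, and at 48 h after partial hepatectomy (PHx), the removal of most of the liver mass, with 3 libraries at each time point. The members were all protein-coding genes of the GENCODE M21 annotation with the subunit names Nduf (followed by a, b, c, s or v and a digit), Sdha to Sdhd, Uqcr, Cox4 to Cox8 and Atp5 in the nuclear genome, or mt-Nd, mt-Co, mt-Atp and mt-Cytb in the mitochondrial genome. The rule uses gene names only, though it was set with earlier results of these data known, and it gave 98 of the 55450 genes in the count files. Of these, 85 are nuclear and 13 mitochondrial.

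By the labels, all mice were C57BL/6, 10 to 12 weeks old and on a normal diet, and no transgene is named. The study's methods give male C57BL/6J mice and an age slightly below that of the labels. The 0 h group had no sham operation, so the surgery, the loss of tissue and the time since both cannot be told apart in this comparison. Hepatocytes were freed by collagenase perfusion of the liver, and each library came from a separate preparation. The question put to the data was whether the RNAs for this machinery, which the remaining hepatocytes need for ATP, changed level at the time when many of them divide, and whether nuclear and mitochondrial subunit RNAs did so alike.

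Electrons from NADH enter the chain at complex I and electrons from succinate at complex II. They pass through ubiquinone to complex III, through cytochrome c to complex IV and from there to oxygen, while complexes I, III and IV pump protons across the inner mitochondrial membrane and complex V (ATP synthase) uses their return to make ATP. Complex II is built from nuclear genes alone, and the other complexes combine nuclear subunits with a few that are encoded and translated inside the mitochondrion. Hepatocytes are rich in mitochondria, since gluconeogenesis, urea synthesis and fatty acid oxidation depend on them.

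The libraries held 31419443 to 36346220 gene counts at 0 h and 31684152 to 33093006 at 48 h. The 9 hepatocyte markers summed to between 98303 and 115731 CPM at 0 h and between 62248 and 73053 at 48 h, where CPM is counts per 1000000 of the TMM-normalised library total. Of these 9, 4 were lower (Ttr, Serpina1c, Alb and Apoa1), which is 44.4% beside 19.3% of all genes tested, and the other 5 were not called, among them Hnf4a and Cps1. Other liver cells left smaller traces. The 9 endothelial markers summed to between 226 and 352 CPM at 0 h and between 165 and 180 at 48 h, and 9 of 9 passed the test as lower, beside 19.3% of all genes tested. The 10 Kupffer cell markers summed to between 81.4 and 122 CPM at 0 h and between 117 and 144 at 48 h, with 3 higher (Marco, Cd5l and Cd68), beside 21.4% of all genes. The 8 stellate cell markers summed to between 64.2 and 105 CPM and between 56.0 and 67.0, with Col1a1 higher and Reln lower. The 6 cholangiocyte markers summed to between 9.15 and 20.7 CPM and between 16.3 and 26.0, with Spp1 higher and Krt7, Krt19, Epcam and Cftr at no more than 4 counts in a library. No neutrophil or muscle marker reached the filter on low counts, Mb and Mpo were at 0 counts in all libraries, and Hbb-bt, a beta-globin gene, was at 0 as well. Cd4 of 9 lymphocyte markers and Alas2 of 6 red cell markers were lower, and the rest of both lists did not reach the filter. The part that these cells have in the values below was not tested, and in bulk RNA fewer cells of a type and less RNA per cell cannot be told apart.

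Most nuclear subunit RNAs did not pass the test between 0 h and 48 h. Of the 85 nuclear members, 79 reached the filter of at least 10 counts in at least 3 libraries. Of these, 4 rose (Cox6b2, Ndufa8, Ndufc1 and Cox7a2) and 7 fell (Ndufa4l2, Ndufs7, Ndufa6, Ndufa1, Sdha, Ndufv3 and Ndufa9) by the quasi-likelihood F test of edgeR, called where the p-value adjusted over 17037 genes by the Benjamini-Hochberg method was under 0.05. These 11 calls are 13.9% of the nuclear members tested, beside 40.7% called among all genes tested and 44.2% among protein-coding genes. By direction, 5.06% were higher and 8.86% lower, beside 21.4% and 19.3% over all genes, and 25.3% and 18.8% over protein-coding genes. The 3 libraries of one time point lay wholly above those of the other in 18 of the 79 nuclear members (22.8%), beside 52.7% of all genes and 56.7% of protein-coding genes.

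The median log2 fold change (48 h over 0 h) was -0.04 over the nuclear members tested, -0.0033 over all genes and 0.06 over protein-coding genes. The 95% interval of the log2 fold change stayed within 1 in either direction for 75 of the 79 and within 0.5 for 38, so that for most members a doubling or a halving of the RNA lay outside the interval, and smaller changes often did not. Because Cox6b2 reached the filter through its 48 h libraries only, the share called among members that passed is not free of the comparison. Direction depended on the scaling. With library totals in place of TMM, 15 nuclear members were higher and 2 lower, beside 31.2% and 12.4% of all genes, and the median over all genes tested moved up by 0.20. With upper quartile factors 3 were higher and 14 lower, beside 18.4% and 23.0% of all genes. With TMM factors from protein-coding genes 4 were higher and 13 lower, beside 19.6% and 21.8%. Relative to the median over all genes, the nuclear median was -0.04 under TMM, under library totals and under upper quartile factors.

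**Figure D1:**
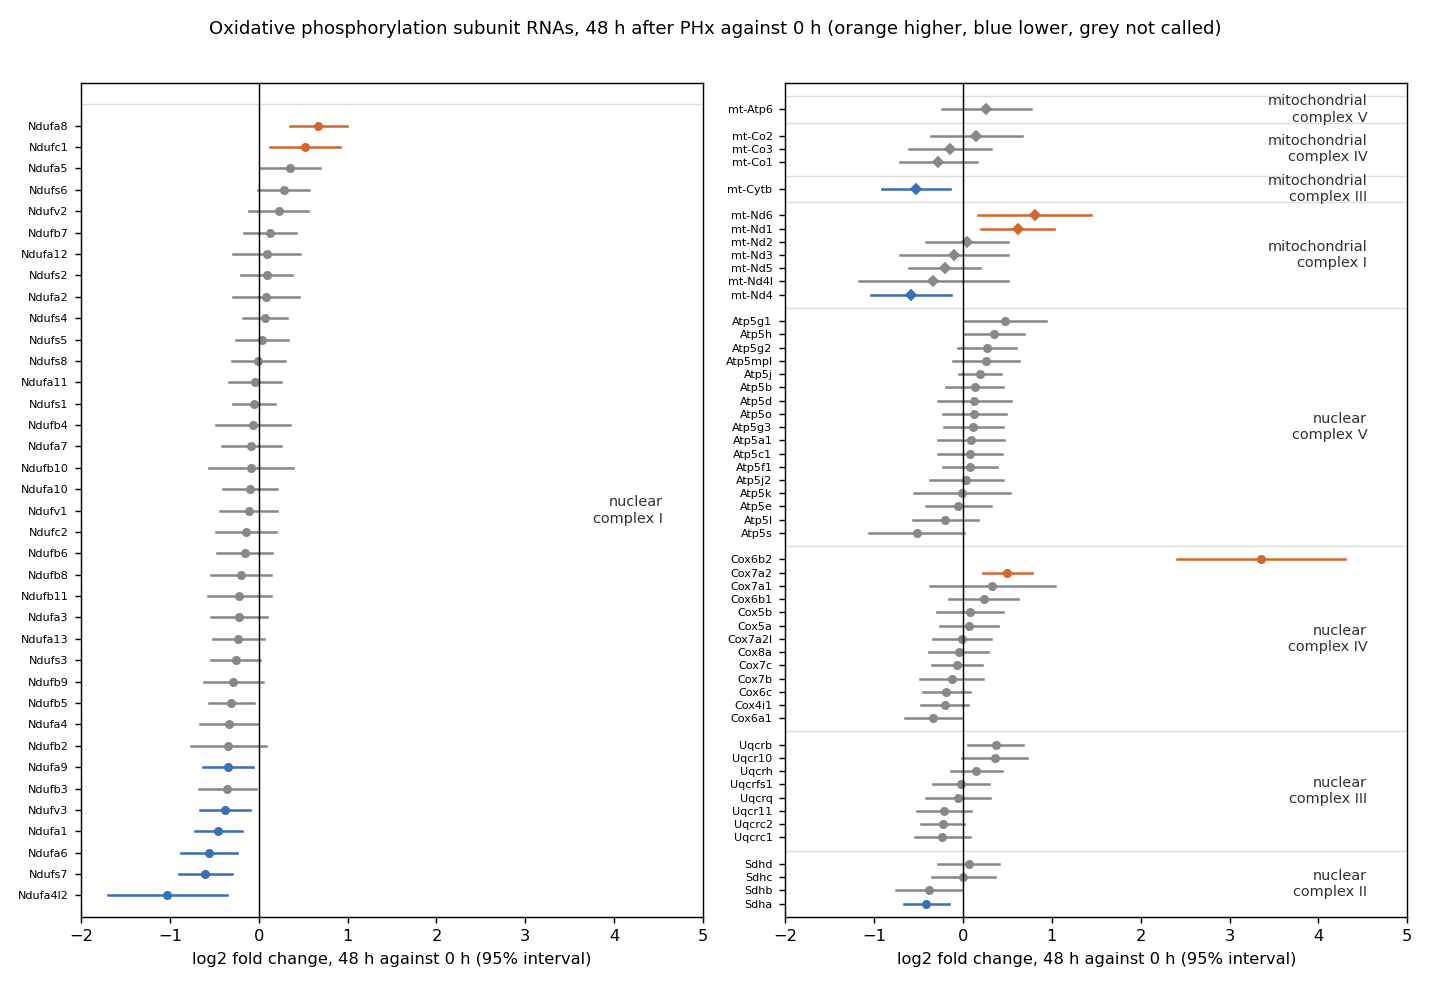
Log2 fold change of each tested member at 48 h against 0 h (x axis; points are edgeR estimates, bars their 95% intervals, 3 libraries per time point), grouped by complex, with circles for nuclear and diamonds for mitochondrial genes. The intervals of 68 of the 79 nuclear members belong to genes that were not called (grey), most of them between -1 and 1, and Cox6b2 lies far to the right at 3.35.

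The libraries of one time point differed widely. Summed over the nuclear members, the level was 5691, 4434 and 5767 CPM in 0 h replicates 1, 2 and 3, and 5496, 5726 and 4564 CPM in 48 h replicates 1, 2 and 3. Replicate 2 at 0 h and replicate 3 at 48 h were therefore the low libraries, and the time points overlapped, with means of 5297 ± 749 (SD, n = 3) and 5262 ± 616 (SD, n = 3). Of the 79 nuclear members tested, 74 had their lowest 0 h level in replicate 2 and 70 had their lowest 48 h level in replicate 3. The 0 h replicate 2 library also had the highest share of reads outside genes (32.7%, with 24.3% to 29.3% in the others), and the part of this in the low sums was not tested. Without 0 h replicate 2, 17 nuclear members were called lower and 3 higher, beside 19.0% and 20.4% of all genes. Without 48 h replicate 3, 3 were called lower and 7 higher, beside 17.5% and 18.2% of all genes.

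Complex I, the NADH dehydrogenase, held 8 of the 11 nuclear calls, with 6 lower and 2 higher among 37 members tested (21.6%, beside 40.7% of all genes, and 16.2% lower beside 19.3%). Its median log2 fold change was -0.11, and 26 of the 37 estimates lay below 0. With library totals 5 were higher and 2 lower, beside 31.2% and 12.4% of all genes, and the median was 0.08. Without 0 h replicate 2, 1 was higher and 13 lower, beside 20.4% and 19.0% of all genes. Ndufs7 (chr10:80249121-80256794, GRCm38 as in all coordinates here) encodes a core subunit that carries the last iron-sulfur cluster before ubiquinone. Its level was 50.4, 38.3 and 47.0 CPM at 0 h and 32.1, 31.9 and 25.4 CPM at 48 h. The time points did not overlap, the log2 fold change was -0.60 (SE, the standard error, 0.135, with an adjusted p = 0.00526 in edgeR's test), and the call was kept under all 10 alternative settings with 6 libraries and without each library in turn.

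Ndufa6, an accessory subunit of the arm that faces the matrix, stood at 37.2, 28.6 and 39.8 CPM at 0 h and at 22.9, 26.9 and 21.9 CPM at 48 h. All 48 h libraries were below all 0 h libraries (log2 fold change -0.56, SE 0.141, adjusted p = 0.00973 in edgeR's test), and the call was lost with library totals as the scale, at an adjusted p of 0.0638. Ndufa1, Ndufv3 and Ndufa9, all accessory subunits, were named after their values were seen, to complete the count of calls. Ndufa1 went from 16.4 ± 1.57 to 11.9 ± 0.409 CPM (SD, n = 3 each), a log2 fold change of -0.45. Ndufv3 and Ndufa9 had log2 fold changes of -0.38 and -0.35, with adjusted p-values of 0.0345 and 0.0493 in edgeR's test. The Ndufv3 call was lost with library totals, with the replicate number as a block (adjusted p = 0.0657) and without any library other than 0 h replicate 2. The Ndufa9 call was lost with DESeq2, limma-voom, library totals and the block (adjusted p = 0.0785), and without 0 h replicate 1, 0 h replicate 3, 48 h replicate 2 or 48 h replicate 3. The Ndufa1 call was lost with library totals.

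Ndufa8 and Ndufc1 moved the other way. Ndufa8 (chr2:36036326-36049406) encodes an accessory subunit on the intermembrane side that is held together by disulfide bonds. It was at 35.6, 26.6 and 36.2 CPM at 0 h and at 56.6, 55.7 and 44.2 CPM at 48 h. The lowest 48 h library was above the highest 0 h library, and the log2 fold change was 0.67 (SE 0.145, adjusted p = 0.00424 in edgeR's test), called under all 10 alternatives and without each library. Ndufc1, a small subunit of the membrane arm, was at 9.12, 6.80 and 9.85 CPM and then at 13.7, 13.3 and 9.91 CPM. Its 48 h replicate 3 lay just above the highest 0 h library, and its call (log2 fold change 0.52, adjusted p = 0.0402 in edgeR's test) was lost with upper quartile factors, with the replicate block (adjusted p = 0.0650) and without 0 h replicate 1, 0 h replicate 2, 48 h replicate 1 or 48 h replicate 2. Neither gene overlaps exons of another annotated gene.

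The subunit name Ndufa4 covers a pair of paralogs. Ndufa4 was first listed with complex I and is now known to sit in complex IV (it is grouped here by its name), and Ndufa4l2 is a paralog known as a target of hypoxia signalling. Ndufa4l2 was counted 65, 33 and 61 times at 0 h and 30, 29 and 28 times at 48 h. The 48 h libraries were close together and below the 0 h libraries, with a log2 fold change of -1.03 (SE 0.302, adjusted p = 0.0202 in edgeR's test). This call was lost without 0 h replicate 1 or 3 or 48 h replicate 2 or 3. At 1.56 CPM per kilobase of exon at 0 h, the level of Ndufa4l2 was far under that of Ndufa4, at 38.0, and 2.92% of its exon bases lie opposite Shmt2 on the other strand. Ndufa4 itself had a log2 fold change of -0.34 with an adjusted p of 0.0934 in edgeR's test. Ndufb11, the nuclear complex I member with the highest level per kilobase (a mean of 68.1 over 6 libraries), had a log2 fold change of -0.22 (95% interval -0.58 to 0.14), and 12.9% of its exon bases lie opposite Rbm10.

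Complex II, succinate dehydrogenase, also takes part in the TCA cycle and has 4 subunits. Sdha is the flavoprotein that oxidises succinate, Sdhb carries the iron-sulfur clusters, and Sdhc and Sdhd anchor the enzyme in the membrane. Sdha was at 342, 313 and 338 CPM at 0 h and at 256, 257 and 233 CPM at 48 h, with no overlap (log2 fold change -0.41, SE 0.116, adjusted p = 0.0167 in edgeR's test). Its call was lost with library totals as the scale and without 0 h replicate 1, 0 h replicate 3 or 48 h replicate 3. Sdhb went from 99.2 ± 19.2 to 76.3 ± 12.9 CPM (SD, n = 3 each) and did not pass (log2 fold change -0.38, adjusted p = 0.0976). The anchors had log2 fold changes near 0, with 95% intervals of -0.35 to 0.36 for Sdhc and -0.28 to 0.41 for Sdhd.

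None of the 8 nuclear members of complex III, the cytochrome bc1 complex, passed edgeR's test, beside 40.7% of all genes. The intervals of all 8 stayed within 1. At an unadjusted p under 0.05 there was 1 (Uqcrb), and DESeq2 and limma-voom called 0 of the 8 (39.5% and 40.7% of all genes). With library totals 3 of the 8 were higher (31.2% of all genes), with no filter 1 was higher (12.4%), and with upper quartile factors or TMM from protein-coding genes 1 was lower (23.0% and 21.8%). Without 48 h replicate 3, 2 were higher (18.2% of all genes), without 0 h replicate 3, 1 was higher (18.3%), and without 0 h replicate 2, 1 was lower (19.0%). Uqcrb, a small subunit, and the core proteins were named after their values were seen. Uqcrb went from 31.3 ± 4.87 CPM at 0 h to 40.4 ± 4.99 CPM at 48 h (SD, n = 3 each, log2 fold change 0.37, adjusted p = 0.0549). The 2 large core proteins, Uqcrc1 and Uqcrc2, both had estimates of -0.23, with adjusted p-values of 0.214 and 0.116. Uqcr11 had the highest level per kilobase of these 8 (93.0) and an estimate of -0.21 (95% interval -0.52 to 0.09).

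Complex IV, cytochrome c oxidase, had 13 of 18 nuclear members tested, 2 of them higher (15.4%, beside 21.4% of all genes) and the other 11 not called. With upper quartile factors or TMM from protein-coding genes 1 was lower (23.0% and 21.8% of all genes). The same number was lower without 0 h replicate 2 (19.0%) or 48 h replicate 2 (15.4%). Both higher calls fell on members of isoform pairs. The other tested members of such pairs or trios (Cox4i1, Cox6a1, Cox6b1, Cox7a1, Cox7b and Cox8a) were not called. Several of its subunits exist as a form found in liver and most tissues beside a form of heart and skeletal muscle or of testis. Cox6b2 (chr7:4751792-4753094), known as the testis form, was counted 2, 6 and 7 times at 0 h and 39, 80 and 56 times at 48 h. Every 48 h library was above every 0 h library, and the log2 fold change was 3.35 (SE 0.424, 95% interval 2.41 to 4.30, adjusted p = 0.000152 in edgeR's test). Since Cox6b2 reached the filter through its 48 h libraries only, that it was tested depended on the comparison. With no filter it was also called, and without any 1 of the 48 h libraries it no longer reached the filter. Its level was still low, at 1.50 ± 0.490 CPM per kilobase at 48 h (SD, n = 3) beside 175 ± 32.5 for Cox6b1, the form of most tissues, whose log2 fold change was 0.23 (95% interval -0.16 to 0.62).

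The stretch upstream of Cox6b2 is shown because its RNA had the largest change among the members. These are the 150 bases before the RefSeq gene start (GRCm38.p6, chr7:4753095-4753244, minus strand), with the reverse of a CCAAT box in capitals, which starts 9 bases before the gene start.
Cox6b2: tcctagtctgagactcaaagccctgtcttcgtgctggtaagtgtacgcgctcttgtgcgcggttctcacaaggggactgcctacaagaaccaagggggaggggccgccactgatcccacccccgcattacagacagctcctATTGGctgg

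Cox7a2, the liver form of its subunit, was at 35.3, 26.4 and 34.1 CPM at 0 h and at 45.1, 48.3 and 42.1 CPM at 48 h. The groups did not overlap, and the log2 fold change of 0.50 (SE 0.126, adjusted p = 0.00961 in edgeR's test) was called under all 10 alternatives and without each library. Cox7a1, the muscle form, was counted between 13 and 31 times in every library and did not pass (log2 fold change 0.33, 95% interval -0.37 to 1.04). The assembly-linked relative Cox7a2l was named after its values were seen and had an estimate of -0.01 (95% interval -0.33 to 0.31). Cox8a had the highest level per kilobase of all nuclear members (346) and no call (log2 fold change -0.05, adjusted p = 0.813). Cox6a1, the liver form of its subunit, was not called either (log2 fold change -0.34, adjusted p = 0.0832).

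The other tissue forms were at or near 0 counts. Cox6a2 and Cox8b of heart and skeletal muscle reached at most 3 and 5 counts in a library, and Cox4i2, a form of lung, reached at most 3. Cox8c and Cox7b2 had 0 counts in all 6 libraries, which allows up to 3 counts or 0.0825 to 0.0955 CPM before TMM, by counting error only. A second annotated gene named Atp5o (ENSMUSG00000116933.1), whose exons lie within other genes, also had 0 counts. Cox4i1 and Cox7b, the partners found in most tissues, were not called (log2 fold changes -0.21 and -0.13).

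**Figure D2:**
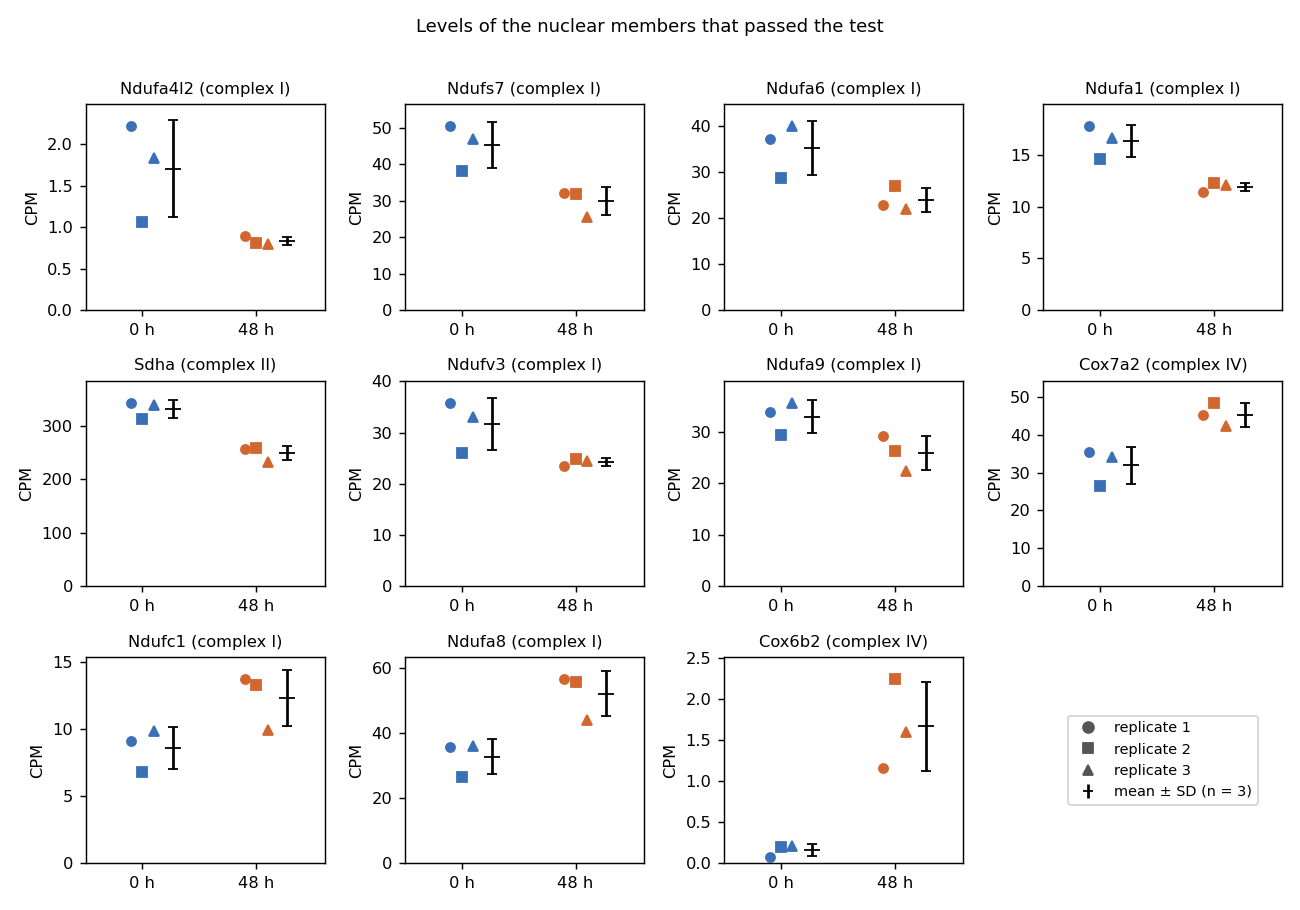
Level in CPM (y axis, from 0) of the 11 nuclear members that passed the test, in 3 libraries at 0 h (blue) and 3 at 48 h (orange), with the mean and SD beside them and a marker shape for each replicate number. In each panel the 48 h libraries lie wholly above or wholly below the 0 h libraries, by a wide gap for Cox6b2 and by a narrow one for Ndufc1 and Ndufa9.

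None of the 17 tested nuclear members of complex V passed edgeR's test, beside 40.7% of all genes. At an unadjusted p under 0.05 there were 2, and DESeq2 and limma-voom called 0 (39.5% and 40.7% of all genes). Estimates above 0 were seen for 13 of the 17, with a median log2 fold change of 0.12, while the median of complex I was -0.11. Without 0 h replicate 2 these medians were -0.03 and -0.25, and without 48 h replicate 3 they were 0.22 and -0.01. With library totals as the scale, 5 of the 17 passed as higher, beside 31.2% of all genes. With no filter 1 was higher (12.4% of all genes), and without 48 h replicate 3, 2 were higher (18.2%). Atp5a1 and Atp5b, the alpha and beta subunits that form the catalytic head (Atp5b was named after its values were seen), were at 570 ± 89.6 and 594 ± 62.6 CPM at 0 h and at 605 ± 94.9 and 650 ± 75.6 CPM at 48 h (SD, n = 3 each). Their log2 fold changes were 0.09 (95% interval -0.28 to 0.46) and 0.13 (95% interval -0.19 to 0.45). Atp5g1, Atp5g2 and Atp5g3 encode the same ring subunit with different import signals. Atp5g1 was at 80.1, 54.4 and 83.0 CPM and then at 119, 112 and 71.4 CPM, and the overlap came from 48 h replicate 3. Its log2 fold change was 0.47 (adjusted p = 0.0933 in edgeR's test), and those of Atp5g2 and Atp5g3 were 0.27 and 0.12.

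Reads counted on the mitochondrial members made up 5.37% to 6.51% of gene counts at 0 h and 5.24% to 6.26% at 48 h. Almost none of these reads fell on 5 members that share their sequence with nuclear copies. The mitochondrial members moved in both directions. Of the 13, 12 reached the filter. mt-Nd1 and mt-Nd6 rose and mt-Nd4 and mt-Cytb fell, so that 33.3% were called beside 40.7% of all genes tested, with a median log2 fold change of -0.12. Without 5 members that share nearly all of their sequence with nuclear copies (described after them), 4 of 7 were called (57.1%) and the median was -0.21. All 4 are encoded by a genome that is transcribed as long precursors and cut at transfer RNAs, so these RNAs are not made one by one. All but mt-Nd6 lie on the plus strand of the reference.

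mt-Nd1, a membrane subunit of complex I (chrM:2751-3707), was at 4275, 4732 and 5645 CPM at 0 h and at 6350, 8605 and 7483 CPM at 48 h. The time points did not overlap (log2 fold change 0.61, SE 0.185, adjusted p = 0.0223 in edgeR's test), and the call was lost without 0 h replicate 1, 0 h replicate 2 or 48 h replicate 2. mt-Nd6 (chrM:13552-14070, minus strand) was at 195, 479 and 344 CPM and then at 451, 702 and 627 CPM. Its time points overlapped, since 0 h replicate 2 was above 48 h replicate 1. The log2 fold change was 0.81 (SE 0.284, adjusted p = 0.0438 in edgeR's test), and without the low 0 h replicate 1 it was 0.52 with an adjusted p of 0.109. The call was also lost without 0 h replicate 3, 48 h replicate 2 or 48 h replicate 3, and with upper quartile factors, TMM factors from protein-coding genes or a filter at 1 CPM. Whether counting used the strand is not given in the sources used here, so reads from the opposite strand of mt-Nd6 cannot be told apart from its own.

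mt-Cytb, the cytochrome b of complex III (chrM:14145-15288), was at 8776, 7948 and 9907 CPM at 0 h and at 5530, 6788 and 6202 CPM at 48 h. All 48 h libraries were lower (log2 fold change -0.52, SE 0.172, adjusted p = 0.0327 in edgeR's test). mt-Nd4, of complex I (chrM:10167-11544), was at 6376, 4600 and 7803 CPM and then at 3838, 4387 and 4296 CPM. The 48 h libraries were close to each other and just below 0 h replicate 2 (log2 fold change -0.58, SE 0.205, adjusted p = 0.0424 in edgeR's test). For both RNAs the call was lost with library totals as the scale, with the replicate number as a block (adjusted p = 0.0811 for mt-Cytb and 0.0821 for mt-Nd4) and without any library other than 0 h replicate 2.

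mt-Co1, the catalytic subunit of complex IV, held 44.0% to 52.9% of the counts on mitochondrial members. It went from 31029 ± 4490 to 25592 ± 1687 CPM (SD, n = 3 each) and was not called (log2 fold change -0.28, adjusted p = 0.284). mt-Nd2 and mt-Nd5 were not called either, with 95% intervals of -0.42 to 0.51 and -0.61 to 0.19. mt-Rnr2, the large ribosomal RNA of the same genome, is no member, but its counts differed widely at 0 h (13052, 110007 and 25277) and less at 48 h (91723, 119546 and 92296). As for mt-Nd6, the lowest was 0 h replicate 1.

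The other 6 mitochondrial members had far fewer counts, and 5 of them share nearly all of their sequence with nuclear copies. mt-Co2, mt-Co3, mt-Atp6, mt-Nd3 and mt-Nd4l were counted 16 to 430 times per library, while the 7 discussed above were counted 5716 to 1179331 times. These 5 genes are also those with 98.0% to 100% of their 50-base stretches present in another annotated gene, and the 7 have 0% to 62.2%. The other annotated genes are nuclear copies of mitochondrial DNA. On chromosome 1, 7 unprocessed pseudogenes on the minus strand cover 4663 bases (chr1:24611535-24616197, GRCm38) and match the stretch from the end of mt-Co1 into mt-Nd4. Over 681 bases of mt-Co2, 783 of mt-Co3, 678 of mt-Atp6, 294 of mt-Nd4l and 876 of mt-Nd4, the copy differs at 0 positions. In mt-Nd3 it differs at 1 position, T3C (counted from the gene's first base, the mitochondrial base first).

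The first 60 bases of mt-Co2 (chrM:7013-7072) and of its copy Gm28661 (chr1:24615506-24615565, minus strand) are shown because a read from these bases could not be given to either by its sequence.
mt-Co2: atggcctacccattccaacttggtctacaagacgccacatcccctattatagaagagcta
Gm28661: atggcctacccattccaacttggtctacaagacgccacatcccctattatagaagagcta

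The first 60 bases of mt-Nd3 (chrM:9459-9518) and of Gm28438 (chr1:24613060-24613119, minus strand) hold the single difference, in capitals.
mt-Nd3: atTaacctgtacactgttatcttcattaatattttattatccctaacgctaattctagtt
Gm28438: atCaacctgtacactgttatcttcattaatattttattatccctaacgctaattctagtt

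The copy ends inside mt-Co1, where Gm29216 (chr1:24616138-24616197, minus strand) and the gene (chrM:6381-6440) differ at the 6 bases in capitals and then at no base of the 492 aligned.
mt-Co1: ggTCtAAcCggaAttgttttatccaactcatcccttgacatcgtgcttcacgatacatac
Gm29216: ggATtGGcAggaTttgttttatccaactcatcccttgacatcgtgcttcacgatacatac

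The copies of the 5 low genes on chromosome 1 had 10 to 459 counts per library. Gm28661 had 244, 305 and 205 counts at 0 h and 246, 319 and 326 at 48 h, and mt-Co2 had 178, 275 and 181 and then 184, 288 and 317. The files list 0 reads as aligned to several places, and how such reads were handled is not given in the sources used here. mt-Atp8, which is short, had 0 to 3 counts per library and was not tested. No annotated gene shares its 50-base stretches, but it lies largely in the 230 bases between mt-Co2 and mt-Atp6, and the interval between the matching copies on chromosome 1 is also 230 bases. The 5 low genes gave log2 fold changes from -0.34 (mt-Nd4l) to 0.26 (mt-Atp6), with none under an unadjusted p of 0.05. They had 0 calls in edgeR's test, DESeq2 and limma-voom, beside 40.7%, 39.5% and 40.7% of all genes. Whether the shared sequence set these low counts was not tested, so the values stand for the counts on these gene names and not for the mitochondrial RNAs. mt-Nd4 and mt-Co1 are shared in part (62.2% and 51.1%).

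**Figure D3:**
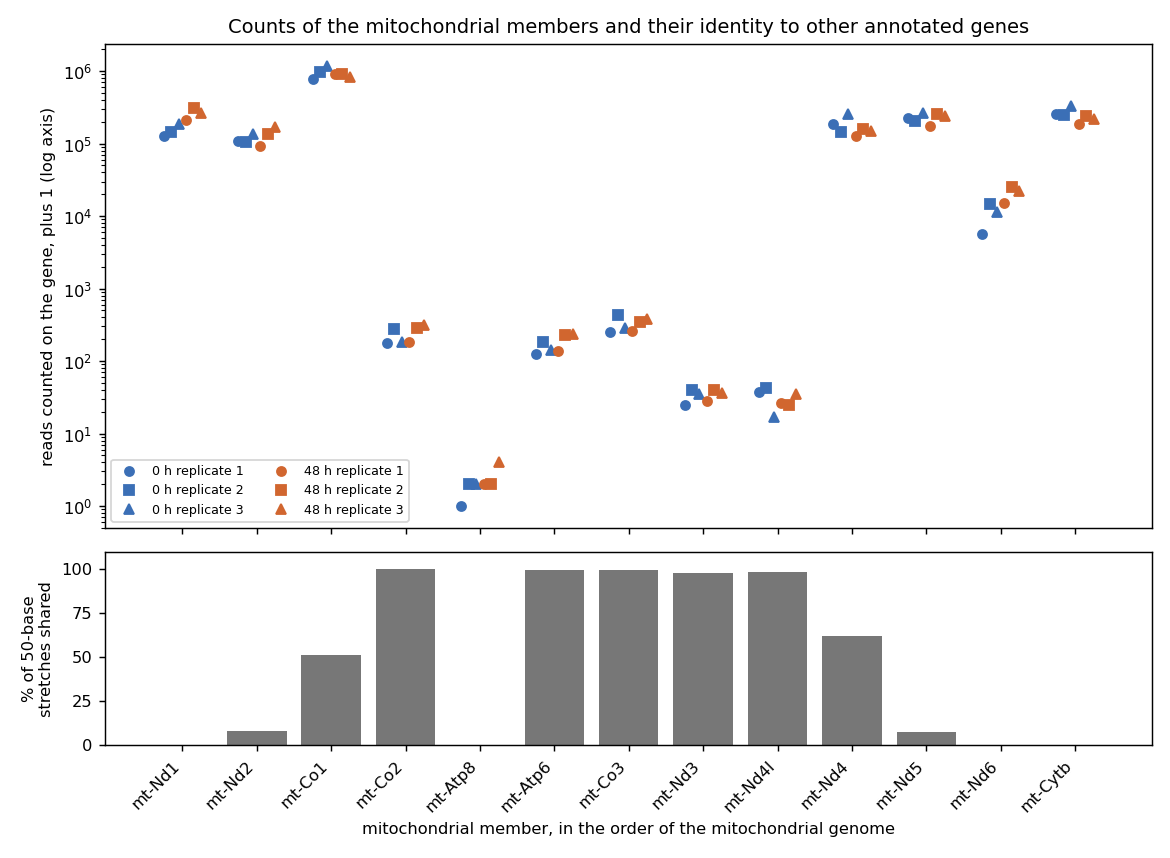
Upper panel, reads counted on each mitochondrial member plus 1 (log axis) in the 3 libraries at 0 h (blue) and 3 at 48 h (orange), and lower panel, percent of its 50-base stretches found in another annotated gene, both in the order of the mitochondrial genome. The run from mt-Co2 to mt-Nd4l lies below 500 counts in every library, and all of that run except mt-Atp8 is shared at 98.0% or more.

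Nuclear and mitochondrial members were compared as sums in each library, as a description. Members under 90% shared held 99.95% to 99.97% of the mitochondrial counts, so the 5 low genes added almost nothing to the mitochondrial sums. What the RNAs of these 5 genes would add was not tested. Per kilobase, the mitochondrial sum was 12.6, 16.9 and 15.5 times the nuclear sum at 0 h and 12.2, 12.9 and 15.6 times at 48 h. The means were 15.0 ± 2.17 and 13.6 ± 1.78 (SD, n = 3 each) and the time points overlapped. The summed mitochondrial level was 57456, 58831 and 71216 CPM at 0 h and 51459, 57127 and 54176 CPM at 48 h, so the 0 h libraries were all above the 48 h libraries on this scale, by a narrow gap. As a share of gene counts without TMM the same sums overlapped. The log2 ratio of nuclear to mitochondrial sums differed between 48 h and 0 h by 0.14, within the spread between replicates (0.20), and by -0.27 when medians over the genes tested replaced the sums. That mitochondrial median lies between mt-Nd6 and the next higher gene of each library, with the 5 low genes shared with nuclear copies all below it.

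**Figure D4:**
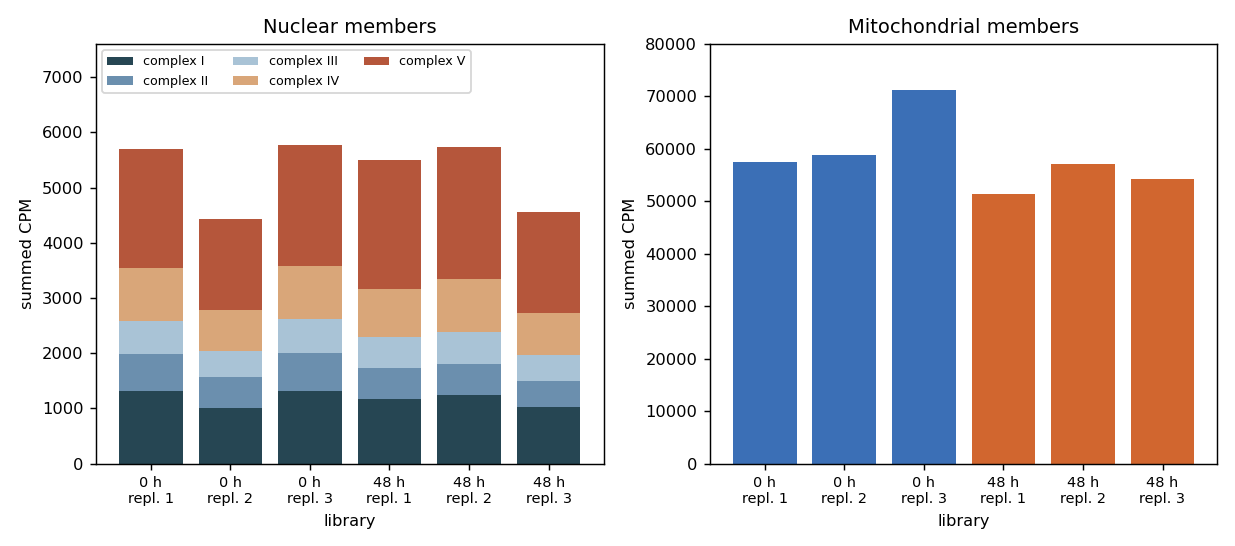
Summed level in CPM (y axes, from 0) of the nuclear members, stacked by complex (left), and of the mitochondrial members (right, 0 h blue, 48 h orange), in each of the 6 libraries. On the left 0 h replicate 2 and 48 h replicate 3 are the lowest, and on the right the 3 libraries at 48 h, from 51459 to 57127, lie below the 3 at 0 h.

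By complex, the summed nuclear level was 638 ± 71.5 CPM at 0 h and 537 ± 53.4 CPM at 48 h for complex II (SD, n = 3 each), and 1992 ± 296 and 2182 ± 297 CPM for complex V. For all 5 complexes the libraries of the time points overlapped.

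Other genes that serve the same machinery were read beside the subunits. Assembly factors, which build the complexes without staying in them, had 48 of 50 matched genes tested, of which 5 rose and 2 fell (14.6%, beside 40.7% of all genes). With library totals as the scale 13 rose and 1 fell, beside 31.2% and 12.4% of all genes. Cmc2, a complex IV factor, rose from 3.51, 2.90 and 3.16 CPM to 6.71, 7.30 and 7.11 CPM, with no overlap (log2 fold change 1.14, adjusted p = 0.000268 in edgeR's test). Ndufaf5, which hydroxylates Ndufs7 during assembly of complex I, went from 2.18 ± 0.435 to 4.31 ± 0.321 CPM (SD, n = 3 each, log2 fold change 0.98). Coa7 had a log2 fold change of 0.60. Surf1, an assembly factor of complex IV, fell from 17.8 ± 1.13 to 10.5 ± 0.334 CPM (SD, n = 3 each, log2 fold change -0.76, adjusted p = 0.000459 in edgeR's test). Tmem126b, of complex I, had a log2 fold change of -0.40, and its call was lost with library totals, with no filter, with the replicate block and without any library other than 0 h replicate 2.

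Of 4 subunits or partners outside the name rule, Atpif1 rose (1 of 4, beside 21.4% of all genes) and Cyc1, Ndufab1 and Usmg5 were not called. Atpif1 encodes the inhibitor that binds complex V and blocks its reverse reaction. It was at 4.60, 3.71 and 5.75 CPM at 0 h and at 11.7, 15.0 and 11.9 CPM at 48 h, a log2 fold change of 1.45 (SE 0.185, adjusted p = 0.000156 in edgeR's test). All 48 h libraries were above all 0 h libraries, and the call was kept without each library.

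Among 20 genes listed as electron carriers, 5 rose and 3 fell (40.0%, beside 40.7% of all genes). The list holds cytochrome c, but mostly genes of ubiquinone synthesis and of electron entry into ubiquinone. Cycs, which encodes the cytochrome c that links complexes III and IV, rose from 18.5, 14.0 and 18.1 CPM to 33.5, 42.5 and 29.6 CPM (log2 fold change 1.06, adjusted p = 0.000439 in edgeR's test). Coq8b and Pdss1, of ubiquinone synthesis, had log2 fold changes of 1.05 and 0.85. For Coq8b, 48 h replicate 1 stood above the other libraries (56.0, with 26.4 and 24.6 CPM in the other 48 h libraries). Its estimate lay between 0.56 and 1.26 over the alternatives and without each library, with the call kept. Coq8a, an ATPase of ubiquinone synthesis, fell from 392, 316 and 444 CPM to 51.0, 56.5 and 47.2 CPM, the largest change of this list (log2 fold change -2.90, adjusted p = 3.61e-07 in edgeR's test). Coq10a and Etfdh, which passes electrons from fatty acid oxidation to ubiquinone, had log2 fold changes of -0.66 and -0.61.

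Of 14 TCA cycle genes tested, 4 rose (28.6%, beside 21.4% of all genes) and the other 10 were not called. Fh1 and Mdh2, the enzymes that follow succinate dehydrogenase in the cycle, had log2 fold changes of 0.96 and 0.91. Fh1 was at 96.6, 86.6 and 107 CPM at 0 h and at 233, 196 and 136 CPM at 48 h. Idh3a had a log2 fold change of 0.90, and the time points did not overlap for any of the 3.

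Of 24 tested genes of mitochondrial DNA maintenance and expression, 3 rose and 4 fell (29.2%, beside 40.7% of all genes). Tfam, which packages mitochondrial DNA and starts its transcription, went from 20.8, 21.2 and 22.5 CPM to 31.4, 30.2 and 29.4 CPM (log2 fold change 0.50, adjusted p = 0.00245 in edgeR's test). Fastkd3 and Trmt10c also rose (0.75 and 0.55), and the call of Trmt10c was lost without 48 h replicate 1. Hsd17b10, Mterf4 and Fastkd1 fell, with log2 fold changes of -0.52, -0.47 and -0.46, and all 3 calls were lost with library totals. The remaining decrease was Polrmt (log2 fold change -0.30, adjusted p = 0.0322 in edgeR's test), named after its values were seen. Polrmt was not among the genes followed through the alternatives. Mterf4 also lost its call with the replicate block (adjusted p = 0.0528) and without any library other than 0 h replicate 2, and Hsd17b10 without 0 h replicate 1, 0 h replicate 3 or 48 h replicate 3. Of 11 transcription regulators, 2 rose and 2 fell (36.4%, beside 40.7%). Pprc1, a relative of PGC-1 that responds to growth signals, rose (log2 fold change 1.22), as did Hif1a (0.42), whose call was lost with upper quartile factors and without any library other than 0 h replicate 3. Ppargc1b (PGC-1 beta) fell by 0.83 on the log2 scale, and Gabpa, an ETS factor, had a log2 fold change of -0.31, with its call lost under 4 of 10 alternatives, among them DESeq2, and without 0 h replicate 1, 0 h replicate 3, 48 h replicate 1 or 48 h replicate 3. Ppargc1a and Nrf1, named after their values were seen, were not called (0.15 and 0.20).

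**Figure D5:**
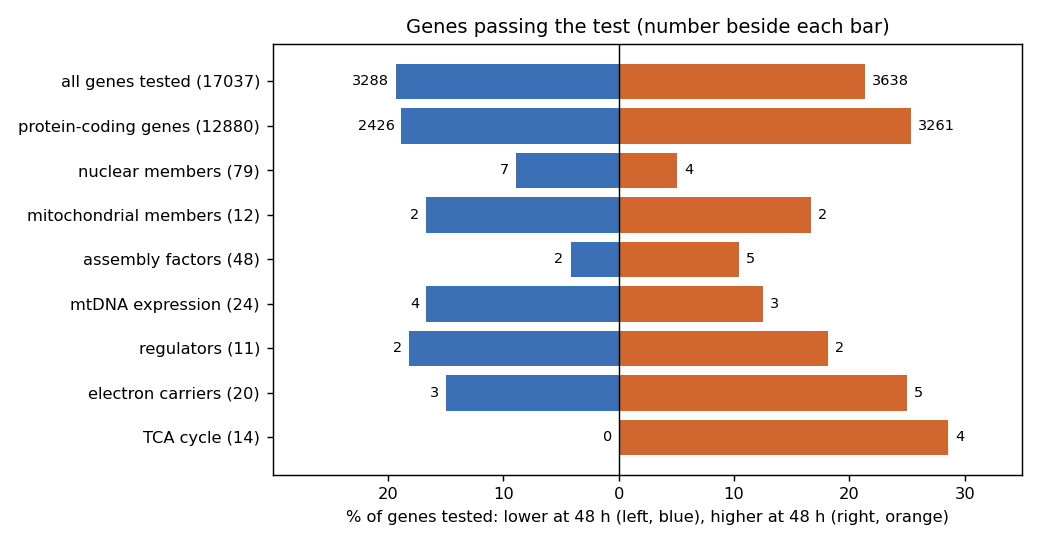
Percent of the tested genes of each list (x axis; number tested in brackets) that were lower (blue, left) or higher (orange, right) at 48 h by edgeR's test (adjusted p under 0.05), with the number of genes beside each bar. All genes and protein-coding genes stand at the top as background, and the nuclear members (7 lower, 4 higher of 79) have shorter bars on both sides.

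Nuclear subunit genes are known to carry sites for NRF1, for the ETS factor GABPA and for YY1 near their starts, and these letters were looked for on both strands in the RefSeq promoters (250 bases before to 50 after the gene start, GRCm38.p6). Of 84 nuclear member symbols, 66 had a promoter entry. The NRF1 core GCATGCGC was found in 15.2% of these and in 3.05% of all 27025 promoters, the ETS core CCGGAAG in 24.2% and 9.93%, the YY1 core AAGATGGC in 13.6% and 3.19%, and CCAAT in 43.9% and 41.1%. These shares are descriptions, since promoters differ in base composition. Of the 10 members with the NRF1 core, 1 was higher (Ndufa8), 1 lower (Ndufa6) and 8 not called, and all 16 with the ETS core were not called. Of the 9 with the YY1 core, 1 was higher (Ndufc1), 2 were lower (Ndufa9 and Ndufs7) and 6 not called. Of the 29 with CCAAT, 1 was higher, 3 lower, 24 not called and 1 not tested. Over all nuclear members tested, 13.9% were called.

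The NRF1 core is in capitals in the promoters of Ndufa8, which rose, Ndufa6, which fell, and Cox6a1, which was not called. It starts 8 bases before the RefSeq gene start in Ndufa8 (chr2:36049339-36049368, minus strand) and 83 before in Ndufa6 (chr15:82354341-82354400, minus strand). In Cox6a1 (chr5:115349087-115349146, minus strand) it starts 160 before, and the other strand also holds it at 162. For Ndufa8 these bases lie inside the gene as GENCODE gives it (chr2:36036326-36049406), with a start further upstream.
Ndufa8: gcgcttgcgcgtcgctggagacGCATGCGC
Ndufa6: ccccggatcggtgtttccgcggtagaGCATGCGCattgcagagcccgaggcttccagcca
Cox6a1: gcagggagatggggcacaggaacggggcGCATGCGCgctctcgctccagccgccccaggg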

How the data were processed

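Hepatocyte RNA of 6 libraries was analysed, grouped by the time point in the sample labels (3 at 0 h, 3 at 48 h). The authors deposited raw counts of reads per gene, with no normalization. The submitters' processing notes list FastQC 0.11.5, Trim Galore 0.6.4, STAR 2.6, HTSeq 0.12.4, DESeq2 and the build mm10, and the gene identifiers are those of GENCODE M21 (GRCm38). Counting mode and strand setting are not given in the sources used here.

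Differences were fitted with edgeR 4.0.16 in R 4.3.3 (TMM factors, glmQLFit, glmQLFTest, time as the only term) on the 17037 genes that reached 10 counts in 3 or more libraries, with Benjamini-Hochberg adjustment over all of them and a threshold of 0.05. P-values set the difference between time points against the spread between these preparations, which edgeR moderates with information from all genes. The standard error is the log2 fold change divided by the square root of F, and the 95% interval uses 10.3 degrees of freedom. Levels per kilobase use the union of annotated exons, which is longer than the main transcript for some genes. Shared sequence was counted as 50-base stretches of a member's transcripts found in transcripts of another gene. The lines for reads outside genes stayed out of library totals. Counts carry no molecular identifiers, so the floor of 3 counts covers counting error only. At this depth 3 counts are 0.0825 to 0.0955 CPM before TMM.

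Alternatives were DESeq2 1.42.0, limma-voom (limma 3.58.1), other factors and filters, the replicate number as a block and leaving out each library. Mitochondrial members under 90% shared and principal transcript lengths were alternatives chosen after seeing the data. Replicate numbers were taken from the labels. The fits were checked on simulated data. Members named are all mitochondrial ones, the 3 largest changes in each direction per complex among calls without overlap, the highest level per complex, isoform pairs and Sdh genes, and for other lists the 3 largest calls in each direction. The members and lists were chosen with earlier results of these data known.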

Additional observations from a re-analysis of the deposited data

How the results depend on the processing

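Counts of calls depended on the scale. Of the nuclear members, 4 were higher and 7 lower with TMM, beside 21.4% and 19.3% of all genes. The numbers were 15 and 2 with library totals (31.2% and 12.4%) and 3 and 14 with upper quartile factors (18.4% and 23.0%). TMM from protein-coding genes gave 4 and 13 (19.6% and 21.8%), and no filter gave 6 and 9 (12.4% and 11.5%). The replicate number as a block gave 3 and 5 (19.0% and 16.9%). The nuclear median log2 fold change was 0.16 with library totals. Without each library in turn it was between -0.16 and 0.05, higher calls numbered 2 to 7 and lower calls 3 to 17. Of all genes, 16.1% to 20.4% were then higher and 15.4% to 19.0% lower. The lowest count of higher calls came without 48 h replicate 1 or 2 and the highest without 48 h replicate 3. The highest count of lower calls came without 0 h replicate 2 and the lowest without 0 h replicate 1, 0 h replicate 3 or 48 h replicate 3. Mitochondrial members had 2 higher and 2 lower. They had 1 higher with upper quartile factors, TMM from protein-coding genes or a filter at 1 CPM (24.0% of all genes). They had 0 lower with library totals or the block. Leaving out a library gave 0 to 2 higher and 0 to 2 lower. Assembly factors had 13 higher and 1 lower with library totals, and 5 lower with upper quartile factors, 4 with TMM from protein-coding genes and 1 with the block. Leaving out a library gave 4 to 5 higher and 1 to 6 lower. The shares of all genes given above for each setting also stand beside the mitochondrial and assembly factor counts. The log2 difference of the nuclear to mitochondrial ratio was -0.27 as a median over genes, where the 5 low mitochondrial genes count as much as the others. The cause of these shifts was not tested.

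Among the genes followed by name, estimates that changed sign belonged to genes with no call. With library totals they were mt-Nd3 (0.10), mt-Nd5 (0.00336), mt-Co3 (0.0561), Cox7a2l (0.19), Cox7b (0.0740), Cox8a (0.15) and Cyc1 (0.10). Members not followed by name also changed sign and are not listed, and the complex I median went from -0.11 to 0.08 with library totals. Upper quartile factors gave mt-Nd2 (-0.0341), Sdhc (-0.0749) and Sdhd (-0.0177), and TMM from protein-coding genes gave mt-Nd2 (-0.00547) and Sdhc (-0.0450). Sdhc was also at -0.00491 with DESeq2 and -0.00492 with RLE factors, at -0.0131 with no filter and at -0.00889 with a filter at 1 CPM, and Cox7a2l was at 0.0015 with limma-voom. Leaving out a library gave ranges of -0.17 to 0.22 for mt-Nd2, -0.25 to 0.0547 for mt-Nd3, -0.0016 to 0.38 for mt-Co2, -0.28 to 0.11 for mt-Co3, -0.16 to 0.11 for Sdhc and -0.0531 to 0.22 for Sdhd. They were -0.16 to 0.0751 for Cox7a2l, -0.26 to 0.0294 for Cox7b, -0.18 to 0.0493 for Cox8a, -0.0469 to 0.22 for Atp5a1, -0.0032 to 0.24 for Atp5g3, -0.22 to 0.0282 for Cyc1 and -0.13 to 0.29 for Ppargc1a. Over the named genes and alternatives, 1024 estimates kept direction and call, 90 lost the call, 26 gained one and 40 changed sign.

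The replicate numbers did not pair the samples, since the deviations of same-numbered samples correlated at 0.03, -0.07 and -0.14, and not every sample correlated best with its own number. Depth limits Cox6b2, Ndufa4l2 and Cox7a1, and the isoforms at or near 0 counts, whose change was not detectable at this depth.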
